A study of Homo sapiens with 6 samples.

Results

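The genes described here are 41 genes of mitosis, among 19676 genes measured on arrays of A375 melanoma cells. They were chosen by function: mitotic cyclins with their kinase, kinetochore and checkpoint proteins, spindle motors and other spindle proteins, cytokinesis proteins, and a few genes of anaphase and chromosome structure. The Aurora kinases and their partners were left out. The choice was made with earlier results of these data known. All 41 genes were measured on all 6 arrays, through 74 probe sets. Of these genes, 22 had 1 probe set and 19 had several, and for each gene the probe set with the highest mean was used.

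Mitosis separates the duplicated chromosomes into 2 daughter cells. Cyclin B with the kinase CDK1 drives entry, kinetochores couple chromosomes to spindle microtubules, and the spindle checkpoint delays anaphase until every chromosome is attached. Motor proteins of the kinesin family build the spindle and organise its midzone, where the contractile ring later divides the cell. Transcripts of these genes are low in quiescent cells and early in the cycle and peak near mitosis, so their summed level in a culture is widely used as a sign of proliferation.

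A375 is a human melanoma line that carries mutant BRAF. At 6 h there were 4 conditions: vemurafenib (10 µM) with AT9283 (100 nM), called the combination below, vemurafenib alone, AT9283 alone, and the solvent DMSO. At 16 h there were vemurafenib (10 µM) and DMSO. Vemurafenib inhibits mutant BRAF, and AT9283 inhibits the Aurora kinases and JAK kinases. All cells were grown in RPMI1640 with serum and kanamycin, and the study compared the drugs alone and together. Each condition had 1 array of 1 cell line, so no difference between 2 arrays has a replicate check.

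The values are log2 intensities, and a difference is the treated array minus its control. A gene was called higher or lower by a rule of size, not by a test: a log2 difference of at least 0.5, which is 1.41-fold, with the higher array at a log2 intensity of at least 6. A stricter rule used a log2 difference of at least 1, which is 2-fold. The words rose and fell below mean that the rule at 0.5 was passed. All 41 genes lay above the floor in every comparison, between 6.27 and 12.07 over the arrays. Probe sets differ in how they bind, so levels are compared between arrays and not between genes.

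The vemurafenib labels were checked through a gene that ERK drives. DUSP6, an ERK phosphatase that ERK signalling induces, had log2 intensities of 4.28 with vemurafenib and 9.50 with DMSO at 6 h, and 4.38 and 9.60 in the same order at 16 h. SOX10 and MITF, regulators of the pigment cell lineage, and VIM of mesenchymal cells were at the floor or above on all 6 arrays, whereas the pigment genes PMEL, MLANA and TYR were below it on all 6. S100B reached it on 1 array. Markers of epithelial cells, leukocytes and endothelium (EPCAM, CDH1, PTPRC, PECAM1) and the fibroblast gene DCN were below it on all 6, and COL1A1 lay just above it, between 6.75 and 6.95. Between the DMSO arrays at 16 h and 6 h, the SD over genes of the log2 difference was 0.24, which gives 0.17 for 1 array. Both values also hold any effect of time and any difference in processing between the times.

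The mitosis genes differed in opposite directions at the 2 times of vemurafenib treatment. At 6 h the log2 differences from DMSO were mostly small and positive: 35 of 41 were above 0, with a median of 0.16, against 53.8% above 0 and a median of 0.02 over all genes at the floor. At 16 h they were mostly negative: 35 of 41 were below 0, with a median of -0.31, against 50% below 0 and a median of -0.00 over all genes. By the rule of size 3 genes rose at 6 h, NDC80, CDC25C and ASPM, and none fell. At 16 h 15 genes fell, 4 of them by at least 1, and none rose. Of all genes, 4.56% rose and 6.82% fell at 6 h, while 16% rose and 18% fell at 16 h, 5.79% by at least 1. In a culture of many cells, fewer cells in mitosis and less RNA per cell cannot be told apart.

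**Figure D1:**
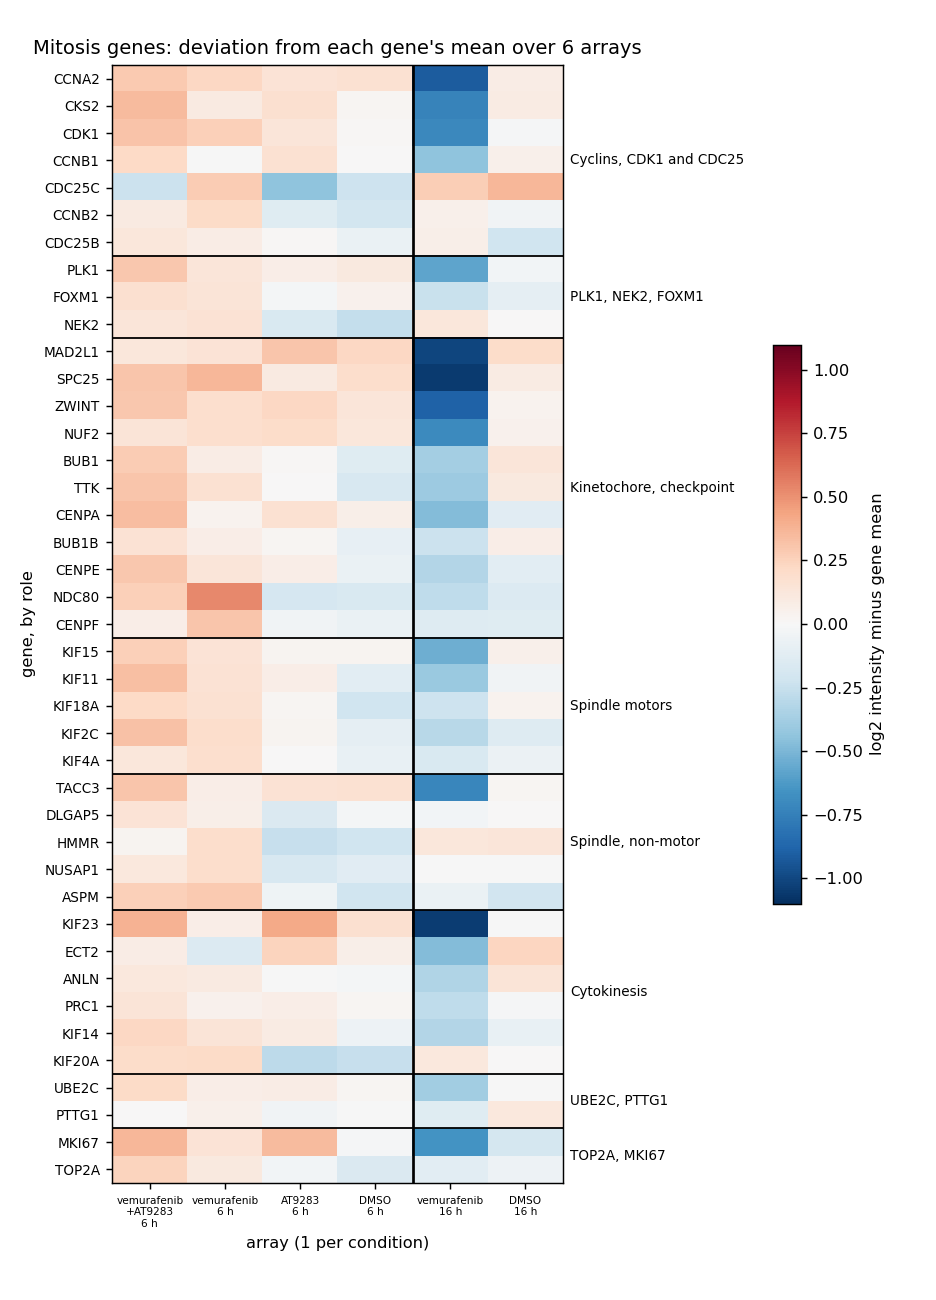
Log2 intensity of each of the 41 mitosis genes minus its own mean over the 6 arrays, with genes grouped by role (rows) and 1 array per condition (columns). The vemurafenib array at 16 h holds the lowest value of 31 of the 41 genes, and the combination array at 6 h the highest value of 24.

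Among the 7 genes of cyclins and CDK1 control, 4 fell at 16 h, with a median log2 difference of -0.50, or -0.83 over the 5 genes at the floor when probe sets of a gene were averaged. CCNA2 encodes cyclin A, which acts in S phase and in entry into mitosis. Its log2 intensity at 6 h was 9.92 with the combination, 9.86 with vemurafenib, 9.78 with AT9283 and 9.80 with DMSO, and at 16 h it was 8.72 with vemurafenib and 9.72 with DMSO. The vemurafenib array at 16 h was the lowest, and the other 5 lay close together. CKS2, a small subunit of cyclin-dependent kinases, fell by 0.83 at 16 h, CDK1 by 0.70 and CCNB1, cyclin B1, by 0.50, while their 6 h differences were 0.08, 0.25 and -0.01.

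The other 3 genes of this group did not fall. CCNB2, cyclin B2, had log2 differences of 0.41 at 6 h and 0.09 at 16 h, unlike CCNB1. CDC25B, a phosphatase that activates CDK1, had 0.16 and 0.28, the highest value of any of the 41 genes at 16 h. CDC25C, the related phosphatase, had log2 intensities of 6.47 with the combination, 6.99 with vemurafenib, 6.27 with AT9283 and 6.48 with DMSO at 6 h, and of 6.98 with vemurafenib and 7.07 with DMSO at 16 h. It rose by 0.51 with vemurafenib at 6 h, but the DMSO array at 16 h was as high as the vemurafenib arrays. Against that DMSO array, a control chosen after seeing the data, the 6 h difference of CDC25C was -0.085, so its direction depended on which control array was used. CDC25C was also close to the floor.

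Of the mitotic kinases PLK1 and NEK2 and the transcription factor FOXM1, which drives many mitotic genes, PLK1 fell at 16 h, by 0.56. PLK1 had log2 intensities of 7.64 with the combination, 7.48 with vemurafenib, 7.42 with AT9283 and 7.45 with DMSO at 6 h, and of 6.76 with vemurafenib and 7.32 with DMSO at 16 h. NEK2, a centrosomal kinase, had differences of 0.42 at 6 h, or 0.16 against the DMSO array at 16 h, and 0.12 at 16 h. FOXM1 had differences of 0.09 and -0.14, and passed the rule at neither time.

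The 11 kinetochore and checkpoint genes held the 2 lowest differences of the 41 at 16 h and the highest at 6 h. All 11 had negative log2 differences at 16 h, with a median of -0.51, and 6 fell. MAD2L1, the checkpoint protein that binds CDC20, had log2 intensities of 10.28 with the combination, 10.31 with vemurafenib, 10.47 with AT9283 and 10.39 with DMSO at 6 h, and of 9.15 with vemurafenib and 10.37 with DMSO at 16 h. The vemurafenib array at 16 h was the lowest, 2.32-fold below DMSO, a log2 difference of -1.21, and the other 5 lay within a narrow band. The gene's other 2 probe sets gave -1.18 and -0.99. SPC25, a subunit of the NDC80 complex that binds microtubules, had log2 intensities of 7.77, 7.83, 7.56 and 7.66 at 6 h in the order combination, vemurafenib, AT9283 and DMSO, and of 6.42 with vemurafenib and 7.56 with DMSO at 16 h. It was 2.22-fold lower with vemurafenib at 16 h, and that array again lay below the other 5.

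Subunits of the same NDC80 complex, each on 1 probe set, differed from each other at each time. NUF2, another subunit, fell by 0.74 at 16 h after a difference of 0.06 at 6 h. NDC80 itself had log2 intensities of 9.21 with the combination, 9.48 with vemurafenib, 8.76 with AT9283 and 8.78 with DMSO at 6 h, and of 8.67 with vemurafenib and 8.80 with DMSO at 16 h. It rose by 0.70 with vemurafenib at 6 h, and both 6 h arrays with vemurafenib stood above the other 4. At 16 h its difference was -0.13. The change of the difference, 16 h minus 6 h, was nearly equal for NDC80 and NUF2, -0.82 and -0.80, and was -1.32 for SPC25. Under the alternatives that left 1 of the 3 rises at 6 h, that gene was NDC80, with 0.68 to 0.70, while ASPM had 0.48 to 0.50 and missed the rule by a small margin. ZWINT, an outer kinetochore protein, fell by 0.93 at 16 h, and the checkpoint kinases BUB1 and TTK each fell by 0.51.

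The remaining kinetochore genes did not pass the rule at either time. CENPA, the histone H3 variant of centromeres, had a difference of -0.36 at 16 h, and BUB1B, which encodes the checkpoint protein BUBR1, had -0.31. CENPE, a kinetochore motor, had -0.21, and CENPF, a large kinetochore protein, had -0.01 after 0.38 at 6 h.

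The spindle motors and the other spindle proteins had smaller median differences at 16 h than the kinetochore genes, but larger ones at 6 h, 0.28 and 0.31 against 0.17. Of the 5 motors, KIF15, which helps keep the spindle bipolar, fell by 0.60 at 16 h. KIF11, the motor that pushes the poles apart, had differences of 0.28 at 6 h and -0.37 at 16 h, and KIF18A, which restrains chromosome movement, had 0.39 and -0.27. KIF2C, a microtubule depolymerase, had 0.29 and -0.17, and the chromokinesin KIF4A had 0.27 and -0.11. The motors' median at 16 h was -0.27.

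Of the 5 spindle proteins that are not motors, TACC3, which stabilises kinetochore fibres, fell by 0.74 at 16 h. The other 4 lay near 0 then: DLGAP5 at -0.03, HMMR at -0.01, NUSAP1 at 0.00 and ASPM at 0.14. ASPM, a spindle pole protein, had log2 intensities of 10.66 with the combination, 10.68 with vemurafenib, 10.35 with AT9283 and 10.18 with DMSO at 6 h, and of 10.32 with vemurafenib and 10.18 with DMSO at 16 h. It rose by 0.50 at 6 h, and the 6 h arrays with vemurafenib were the highest. HMMR and NUSAP1, both microtubule binders, had differences of 0.41 and 0.31 at 6 h, and DLGAP5 had 0.08. Against the DMSO array at 16 h, the 6 h difference of HMMR was 0.056.

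Cytokinesis genes were spread widely. KIF23, the motor subunit of centralspindlin, had log2 intensities of 9.12 with the combination, 8.81 with vemurafenib, 9.16 with AT9283 and 8.91 with DMSO at 6 h, and of 7.69 with vemurafenib and 8.73 with DMSO at 16 h. It was 2.06-fold lower with vemurafenib at 16 h, and its range over the arrays, 1.46, was the widest of the 41 genes. ECT2, the exchange factor that activates RhoA at the midzone, fell by 0.71 at 16 h and had the lowest 6 h difference of the 41, -0.21.

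The other 4 cytokinesis genes did not pass the rule. ANLN, a scaffold of the contractile ring, had a difference of -0.47 at 16 h and came closest to passing, PRC1, the bundler of midzone microtubules, had -0.27, and the midzone motor KIF14 had -0.24. KIF20A, another midzone motor, had 0.46 at 6 h, or 0.21 against the DMSO array at 16 h, and 0.11 at 16 h. UBE2C and PTTG1, which encode an enzyme of the anaphase-promoting complex and securin, had -0.38 and -0.25 at 16 h. TOP2A, topoisomerase II alpha, had -0.06, and the proliferation marker MKI67 had -0.46. Of the 17 genes with several probe sets at the floor at 16 h, 13 had the same sign on all of them, and the probe sets of a gene differed by a median of 0.09 and at most 0.32, in MKI67.

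**Figure D2:**
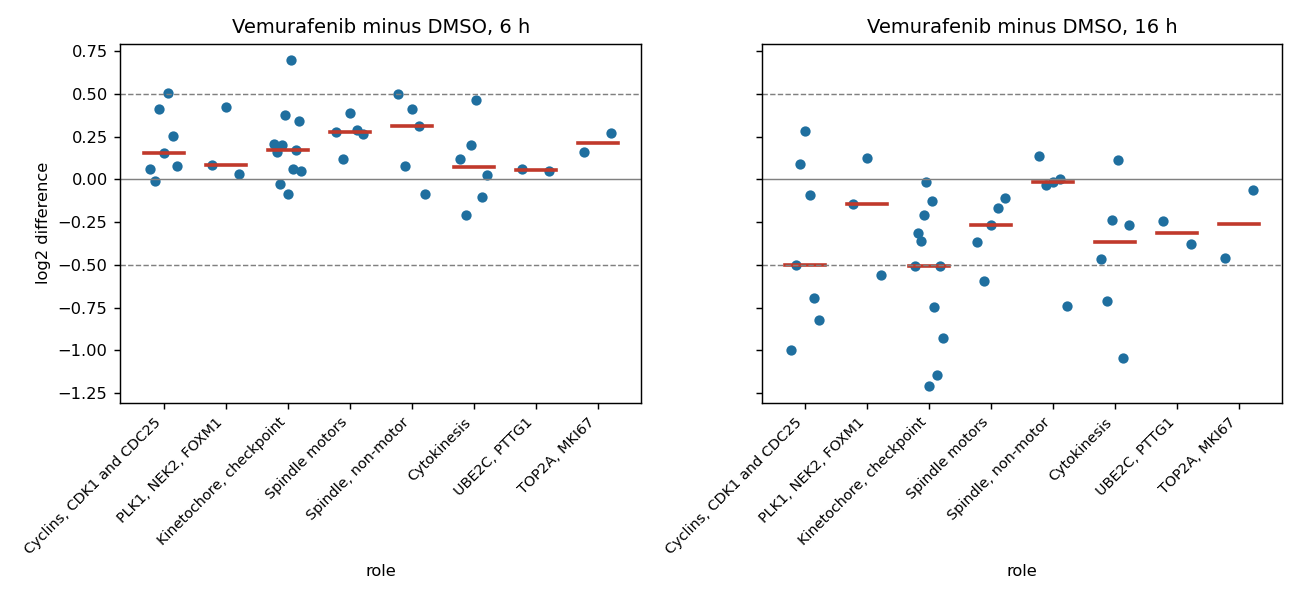
Log2 difference of vemurafenib minus DMSO for each mitosis gene (points) by role (horizontal axis), at 6 h (left) and 16 h (right). Red bars are group medians, dashed lines mark 0.5 and -0.5, and at 16 h the medians lie between -0.51 for kinetochore genes and -0.01 for spindle proteins that are not motors.

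The genes that were lowest at 16 h tended to be the least raised at 6 h. Across the 41 genes the differences at the 2 times, which share no array, correlated with r = 0.64 (Pearson) and rho = 0.67 (Spearman), against an r of 0.74 across all genes. This describes genes on the same 4 arrays, which are not independent of each other. A positive difference at 6 h with a negative one at 16 h was found for 29 of the 41 (70.7%), against 16.1% of the 8913 genes at the floor at both times. With the DMSO array at 16 h as the control at both times, the count was 27, and the genes were not all the same. BUB1, BUB1B, ANLN, PTTG1 and CDC25C then turned negative at 6 h, while CENPA, KIF23 and TACC3 turned positive. Both differences were positive for 5 genes, CDC25B, CCNB2, NEK2, ASPM and KIF20A, although the other probe set of NEK2 gave -0.14 at 16 h. Both were negative for 6 genes, CCNB1, CENPA, ECT2, KIF23, MAD2L1 and TACC3. NUSAP1 was positive at 6 h and at 0 at 16 h. These signs depended on the probe set in part. At 6 h another probe set gave the other sign for CCNA2 (-0.15), CDK1 (-0.16), MAD2L1 (0.18) and MKI67 (-0.05). At 16 h another probe set was positive for CENPF (0.14) and TOP2A (0.05).

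The change of the vemurafenib difference, 16 h minus 6 h, was below 0 for 40 of the 41 genes, CDC25B being the exception, against 52.8% of all genes. Its median was -0.49, against -0.02 over all genes. By the rule 20 genes were lower at 16 h, against 11.8% of all genes lower and 9.55% higher, and SPC25 at -1.32, MAD2L1 at -1.13 and CCNA2 at -1.06 were the lowest. The DMSO arrays differed little: 22 genes were higher and 19 lower at 16 h than at 6 h, against 42.8% of all genes higher, with a median of 0.02. The balance depended on scaling, with 16 higher and 25 lower and a median of -0.04 after centring the arrays on their medians, and 30 higher and 11 lower and a median of 0.08 after quantile normalization. CDC25C alone passed the rule between them, by 0.59, against 2.3% of all genes higher and 2.05% lower. The vemurafenib arrays differed more, and all 41 genes were lower at 16 h than at 6 h, or 35 of 41 after quantile normalization, against 54.5% of all genes. By the rule 16 were lower, against 16.6% of all genes, while 13.5% were higher. Some of the deposited 6 h values stood in another row order, and joint normalization is not stated. In comparisons across the times, any difference in processing between 6 h and 16 h cannot be told apart from time. The same holds where the DMSO array at 16 h serves as control at 6 h.

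**Figure D3:**
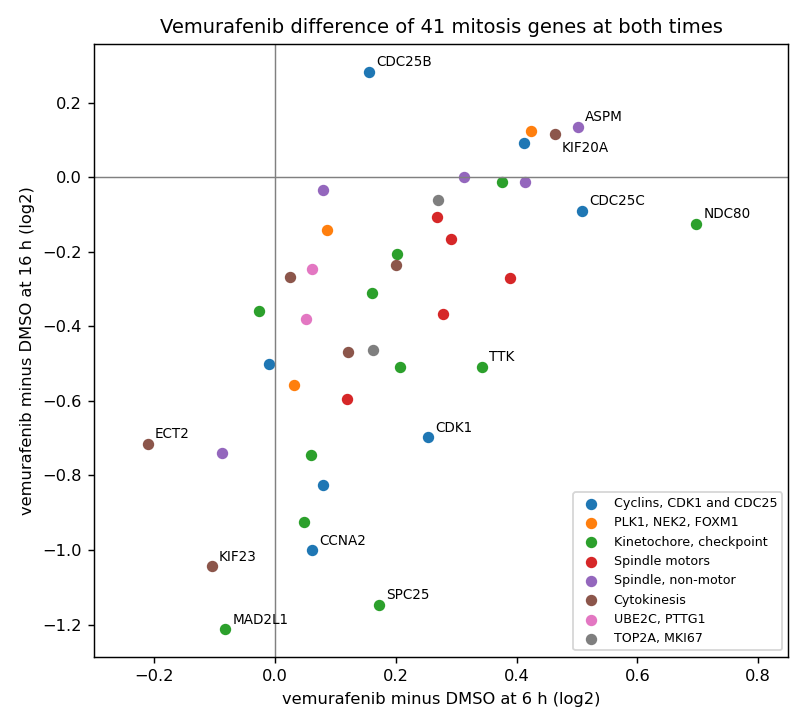
Log2 difference of vemurafenib minus DMSO at 6 h (horizontal) against 16 h (vertical) for the 41 mitosis genes, coloured by role. Most points, 29 of 41, lie right of 0 and below 0, and CDC25B is the highest at 16 h.

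A limma fit took the 4 vemurafenib and DMSO arrays with time as a block, which pairs the arrays of each time. Its 1 residual degree of freedom measures how far the vemurafenib difference changed between times, not the spread of replicates. With limma and Benjamini-Hochberg adjustment over 9651 genes, 0 of the 41 genes had an adjusted p under 0.05, and 0 had an unadjusted p under 0.05. Over all genes limma called 0.839% lower and 0.332% higher, and 22.2% had an unadjusted p under 0.05. ECT2, negative at both times, had the lowest adjusted p of the 41 in limma, 0.243, with an estimate of -0.46 (SE 0.19). Over the 11 settings tried, the lowest adjusted p of any of the 41 genes lay between 0.120 and 0.323 in limma. With all 6 arrays in the fit, which leaves 2 residual degrees of freedom, 4 of the 41 had an unadjusted p under 0.05 and 0 an adjusted one. For the 29 genes above with opposite signs at the 2 times, the fit averages the 2 differences.

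Lists of 105 further mitosis genes were read first at 16 h. They were chosen with earlier results of these data known, so they are not an independent check. Of these, 101 were measured and 97 were at the floor, with a median log2 difference of -0.41. By the rule 39 fell and 1 rose, against 18% of all genes lower and 16% higher. Condensin and cohesin genes fell in 10 of 20 cases, with CDCA5, which protects cohesion, at -1.31 and NCAPH, a condensin subunit, at -1.13. Other centromere and kinetochore genes fell in 12 of 24, with CENPQ at -1.18 and DSN1 at -1.14. Genes of entry into mitosis fell in 7 of 15, with MASTL, the Greatwall kinase, at -1.37 and LIN9 of the MuvB complex at -1.03.

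Further spindle and cytokinesis genes fell in 6 of 22, with KIFC1 at -0.83 and KIF18B at -0.66. The anaphase-promoting complex and its regulators moved least, with a median of -0.10 and 4 of 16 lower. This share and the 6 of 22 above are not far from the 18% of all genes that fell. In that list FBXO5, an inhibitor of the complex, was at -1.04 and CDC23 at -0.86, whereas ANAPC16, a small subunit, was at 0.68. The 7 Aurora complex genes at the floor had a median of -0.56, and 4 of them fell. CDC20, the activator of the complex that MAD2L1 binds, was among 4 listed genes not analysed here. At 6 h the further lists had 61 of 98 genes above 0, with a median of 0.07. Over all genes 53.8% were above 0, with a median of 0.02. By list the count was 16 of 20 for condensin and cohesin and 17 of 25 for centromere and kinetochore. It was 13 of 22 for spindle and cytokinesis, 9 of 15 for entry and 6 of 16 for the anaphase-promoting complex. The Aurora complex had 4 of 7, with a median of 0.01.

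Genes of DNA replication and of entry into S phase, called replication genes here, moved further than those of mitosis on the same array. This list was also chosen with earlier results known. Its lowest gene at 16 h was CCNE2, a cyclin of entry into S phase, at -3.26. Of 31 such genes 30 fell at 16 h, 25 of them by at least 1, with a median log2 difference of -1.47 against -0.31 for the 41 mitosis genes. At 6 h the replication median was -0.02, against 0.16 for mitosis. The mean deviation from the gene means on the vemurafenib array at 16 h was -1.30 for replication genes and -0.37 for mitosis genes. The part of this shift in the mitosis differences was not tested.

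**Figure D4:**
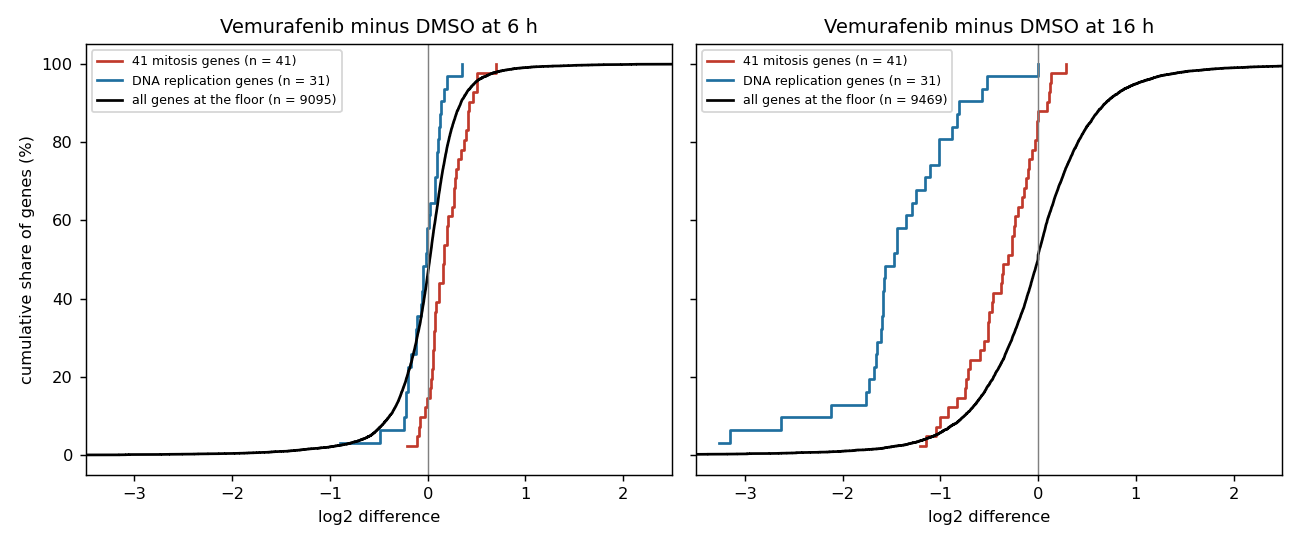
Cumulative share of genes (percent) by log2 difference of vemurafenib minus DMSO at 6 h (left) and 16 h (right), for the 41 mitosis genes, 31 DNA replication genes and all genes at the floor. At 16 h the median is -0.31 for mitosis and -1.47 for replication, and all genes are centred at -0.00.

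AT9283 alone left the mitosis genes close to DMSO at 6 h. The median log2 difference was 0.08, with 28 genes positive and 13 negative, against 55.8% positive and a median of 0.02 over all genes. None of the 41 passed the rule, and of all genes 0.224% rose and 0.0783% fell. MKI67 had the highest difference of the 41, 0.36, with log2 intensities of 9.22 with AT9283 and 8.86 with DMSO, and all 4 of its probe sets gave 0.35 to 0.37. Other genes agreed less: 11 of the 17 with several probe sets at the floor had the same sign on all of them. The probe sets of a gene differed by at most 0.37, in MAD2L1. KIF23 and KIF18A had 0.24 each, KIF11 0.19 and TTK 0.18. Against the DMSO array at 16 h these became 0.42 for KIF23, -0.018 for KIF18A, 0.11 for KIF11 and -0.10 for TTK. The lowest were CDC25C at -0.21, DLGAP5 at -0.14, SPC25 at -0.10, FOXM1 at -0.07 and NUSAP1 at -0.05.

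With the combination 39 of the 41 genes were above DMSO at 6 h, against 59.7% of all genes. The median was 0.23, against 0.05 over all genes, and none passed the rule, while 3.92% of all genes rose and 5.17% fell. The highest were ASPM and TTK at 0.48, KIF20A and KIF11 at 0.45 and KIF18A at 0.44. Against the DMSO array at 16 h, TTK had 0.20, KIF20A 0.19, KIF11 0.37 and KIF18A 0.18, while ASPM hardly changed. MAD2L1 at -0.11 and CDC25C, close to 0, were the 2 below DMSO. Here too 11 of the 17 genes with several probe sets at the floor had the same sign on all of them, and MAD2L1 differed most, by 0.57. The vemurafenib, AT9283 and combination differences at 6 h are all taken from the same DMSO array, so they share its error.

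Adding AT9283 to vemurafenib shifted the genes little. The combination minus vemurafenib had a median of 0.08, with 27 genes positive and 14 negative, against 57.8% positive and a median of 0.03 over all genes. KIF23 at 0.31, CENPA at 0.30, CKS2 at 0.25, and TACC3 and ECT2 at 0.23 were the highest. The other probe set of ECT2 at the floor gave -0.18, the widest disagreement of any gene here. Of the 17 genes with several probe sets at the floor, 11 had the same sign on all of them in this comparison. CDC25C fell by 0.51, the only gene of the 41 to pass the rule, against 1.46% of all genes lower and 0.645% higher. With a pseudocount of 16 its difference was -0.44 and did not pass. NDC80 at -0.27 and CENPF at -0.23 were the next lowest, both genes with high vemurafenib values at 6 h. That vemurafenib array is subtracted here, so a high value on it by itself lowers this difference.

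The 2 differences that AT9283 makes, alone against DMSO and on top of vemurafenib, share no array. Across the 41 genes they had an r of 0.60, against 0.44 across all genes, and 21 genes (51.2%) were positive in both, against 40.2% of 8718 genes. The combination minus AT9283, which adds vemurafenib to AT9283, had a median of 0.18 with 37 genes positive and 4 negative, against 58% positive over all genes. None passed the rule there, where 2.71% of all genes rose and 5.48% fell, and KIF20A at 0.49 was the highest and MAD2L1 at -0.19 the lowest.

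**Figure D5:**
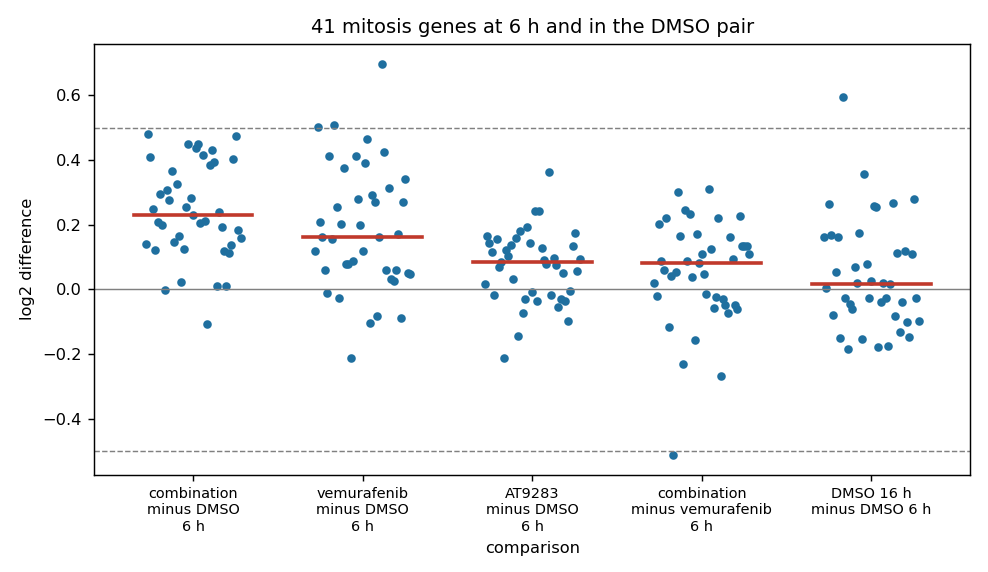
Log2 differences of the 41 mitosis genes (points) in 4 comparisons at 6 h and between the DMSO arrays (horizontal axis), with medians as red bars and dashed lines at 0.5 and -0.5. The medians run between 0.23 for the combination minus DMSO and 0.02 for the DMSO pair, and few points pass a dashed line.

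The promoters of the 41 genes were read for 2 motifs known from mitotic genes. One is TTTGAA, the cell cycle homology region through which the MuvB complex represses these genes outside late cycle phases and activates them near mitosis, and the other is CCAAT, the site of the factor NF-Y. Both were searched on both strands in a window of 280 bases, 250 before and 30 after the annotated start, in RefSeq sequence of build GRCh38.p14. The window was available for 38 of the 41 genes, all but TTK, UBE2C and FOXM1. TTTGAA was present in 26 of 38 (68.4%), against 14.7% of 27305 promoters and 9.25% of 7896 other genes at the floor. CCAAT was present in 28 of 38 (73.7%), against 34.7% and 36.9%, and both motifs in 21 (55.3%), against 5.65% and 3.80%. These genes were chosen by function, and the motifs are known to be shared by such genes.

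At 16 h the median log2 difference was -0.36 for the 26 genes with TTTGAA and -0.19 for the 12 without, which is a description with no test. The promoters of the 2 lowest and 2 highest genes at 16 h are shown because they mark the ends of the range. Capitals mark TTTGAA and CCAAT on either strand, so that TTCAAA and ATTGG are their reverse complements. MAD2L1 lies on the minus strand at chr4:120066819-120067098, SPC25 on the minus strand at chr2:168890401-168890680, ASPM on the minus strand at chr1:197146640-197146919 and CDC25B on the plus strand at chr20:3786701-3786980.
MAD2L1: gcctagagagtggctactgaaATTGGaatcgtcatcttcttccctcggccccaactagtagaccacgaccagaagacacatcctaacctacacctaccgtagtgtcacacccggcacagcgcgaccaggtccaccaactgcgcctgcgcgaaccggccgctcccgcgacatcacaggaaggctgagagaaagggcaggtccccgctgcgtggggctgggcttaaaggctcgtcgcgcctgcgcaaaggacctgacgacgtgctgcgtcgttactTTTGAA
SPC25: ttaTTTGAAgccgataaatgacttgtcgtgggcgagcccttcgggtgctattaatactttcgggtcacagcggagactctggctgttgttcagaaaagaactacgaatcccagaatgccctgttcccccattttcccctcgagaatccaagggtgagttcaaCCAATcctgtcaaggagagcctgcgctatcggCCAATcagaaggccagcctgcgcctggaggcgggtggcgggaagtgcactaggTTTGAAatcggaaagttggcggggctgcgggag
ASPM: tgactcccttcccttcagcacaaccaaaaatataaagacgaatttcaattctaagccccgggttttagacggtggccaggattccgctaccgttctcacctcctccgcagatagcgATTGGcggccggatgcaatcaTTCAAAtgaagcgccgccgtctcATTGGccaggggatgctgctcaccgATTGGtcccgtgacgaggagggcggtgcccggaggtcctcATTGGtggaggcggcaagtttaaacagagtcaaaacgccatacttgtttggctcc
CDC25B: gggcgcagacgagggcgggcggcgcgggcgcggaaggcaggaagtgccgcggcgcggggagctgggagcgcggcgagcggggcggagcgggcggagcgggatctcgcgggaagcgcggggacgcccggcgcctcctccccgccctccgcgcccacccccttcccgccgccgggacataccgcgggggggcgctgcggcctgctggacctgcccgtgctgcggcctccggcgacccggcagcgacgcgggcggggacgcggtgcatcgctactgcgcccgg
MAD2L1 holds 1 copy of each motif, SPC25 holds 2 of each, and ASPM holds 1 TTTGAA and 4 CCAAT. CDC25B holds neither in this window, and its sequence is rich in G and C. A motif match is a description of the letters and not of binding.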

How the data were processed

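The data are the authors' deposited probe set intensities for 6 Affymetrix arrays, each of 1 condition of A375 cells, on a linear scale between 2.3 and 15136. RMA is the only tool in the submitters' processing notes. Its version and joint normalization of the arrays are not stated in the sources used here. The deposited intensities were converted to log2 here.

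The 6 h values stood in another row order for 1118 probe sets, in 6 stretches of rows, and these were left out with 62 control probe sets. None of the 74 probe sets of the 41 genes was among them. A gene was measured by the probe set that names it alone with the highest mean log2 over the arrays, 19676 genes in all from 41097 probe sets with 1 gene symbol. Differences of single arrays were described by size, with no test. The fit used limma 3.58.1 in R 4.3.3 and was tested on simulated data with the same vemurafenib effect at both times. That test does not cover genes with opposite signs at the 2 times, as 29 of the 41 had. All 41 genes, the 5 highest and 5 lowest of each comparison, and up to 2 highest and 2 lowest genes of each other list could be named. The members and lists were chosen with earlier results of these data known. Alternatives changed the probe set, normalization, pseudocount, floor, displaced rows, control array and samples in the fit. Promoters came from RefSeq. The number of arrays limits the precision.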

Additional observations from a re-analysis of the deposited data

Results flagged for a closer look

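In 7 of the 41 genes the vemurafenib difference had opposite signs at the 2 times, each larger than the 0.17 that the DMSO arrays give for 1 array. In 4 of them, CDK1, TTK, KIF18A and KIF11, each difference was also larger than 0.24, the SD of the difference between the DMSO arrays. The change, 16 h minus 6 h, was -0.95 for CDK1, -0.85 for TTK, -0.72 for BUB1, -0.66 for KIF18A, -0.64 for KIF11, -0.44 for KIF14 and -0.41 for CENPE. The signs depended on the control in part: with the DMSO array at 16 h as control, the 6 h difference was -0.055 in place of 0.21 for BUB1, 0.064 in place of 0.34 for TTK and 0.13 in place of 0.39 for KIF18A. For the other 4 genes it lay between 0.20 for KIF11 and 0.28 for CDK1. The 4 probe sets of CDK1 gave differences between -0.16 and 0.25 at 6 h and between -0.99 and -0.70 at 16 h. With 1 array per condition these changes were not tested.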

How the results depend on the processing

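Each condition had 1 array, so no replicate numbers paired arrays, and time was the only block fitted. The median of the 41 genes kept its sign in 8 of 9 comparisons under all alternatives tried. For vemurafenib minus DMSO it lay between 0.12 and 0.20 at 6 h and between -0.35 and -0.23 at 16 h, where 11 to 17 genes fell. For DMSO at 16 h minus 6 h it lay between -0.04 and 0.08. Counts of 3 or fewer moved. At 6 h vemurafenib raised 1 gene in place of 3 with the mean over probe sets, without shared probe sets, with centred arrays, with a pseudocount of 16, and with either other DMSO control. AT9283 lowered 1 gene with the mean DMSO control, and with the DMSO array at 16 h, a control chosen after seeing the data, it raised 1 and lowered 1. The combination raised 1 gene over DMSO with the mean over probe sets, without shared probe sets, and with the DMSO array at 16 h, which also lowered 1. The combination lowered 0 genes against vemurafenib with the mean over probe sets, without shared probe sets, with centred arrays, with a pseudocount of 16 and with a floor at 7, and it raised 1 against AT9283 without shared probe sets. The DMSO pair had 0 genes higher with the mean over probe sets. The cyclin median at 16 h then became -0.83 over 5 genes, with CCNB2 and CDC25C below the floor. CDC25C with vemurafenib at 6 h turned to -0.085 against the DMSO array at 16 h, and smaller 6 h differences of other genes also changed sign. Genes called by limma numbered 113, but 32 with the mean over probe sets, 458 with all 6 arrays and 43 without a trend. Of all genes past 0.5, 52.8% were higher in the DMSO pair, or 35.5% with centred arrays, and 30.7% in the combination minus vemurafenib, or 19.4% after quantile normalization. The causes were not tested.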
